A study of Mus musculus with 8 samples.

Results

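Semaphorins, plexins and neuropilins were followed in Sst-Cre and Trpv1-Cre neurons of mouse dorsal root ganglia (DRG), as a set of 31 genes out of 43372 gene symbols in the count table. The set was chosen by name: every symbol starting with Sema and a digit (20 genes) or with Plxn (9 genes), plus Nrp1 and Nrp2, with pseudogenes and the antisense transcripts Plxna4os1, Plxna4os2 and Plxna4os3 left out. The neurons came from Sst-IRES-Cre mice (genotype Ssttm2.1(cre)Zjh/J) and from Trpv1-IRES-Cre mice (genotype Trpv1tm1(cre)Bbm/J), both on the C57Bl/6 strain. In each line Cre is made from the locus of the named gene, the peptide somatostatin or the heat and capsaicin channel TRPV1. Pups of both genotypes received a Cre-dependent virus into the abdomen at postnatal day 2, AAV9-CAG-FLEX-eGFP-WPRE in some and its counterpart AAV9-CAG-FLEX-tdTomato-WPRE in others, so that any neuron with Cre activity after that day could become fluorescent. Ganglia of mice aged 3 to 5 weeks, of both sexes, were dissociated, and 150 to 250 fluorescent cells per mouse were picked by hand, with one sample of each genotype in every picking session. There were 4 Sst and 4 Trpv1 libraries. A cell enters a pool by its Cre activity and not by its class, and a library averages over its cells. In such pools fewer cells of a type and less RNA per cell cannot be told apart.

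Semaphorins are ligands, either secreted (class 3) or held on the membrane (classes 4 to 7 in vertebrates), that steer growing axons and shape synapses. Plexins are their signalling receptors: binding of a semaphorin opens the plexin's intracellular domain, which switches off small GTPases of the Ras and Rap type and remodels the cytoskeleton. Most class 3 semaphorins need a neuropilin as the binding subunit, with a plexin-A as the signalling subunit. In DRG neurons the system is best known for Sema3A, which repels sensory axons through neuropilin 1. The comparison of the genotypes asks which of these genes differ between the 2 labelled populations.

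Promoter sequence is given for selected ligand genes. These are Sema5b and Sema6d, which were called different, Sema7a, whose groups did not overlap, and Sema5a, the paralog of Sema5b. Sema4d, a ligand gene whose groups also did not overlap, was not among those selected. Each sequence is the stretch of 250 bases before a RefSeq start on GRCm38.p6, plus strand, 5′ to 3′. Capitals mark matches to GGGCGG, the GC box, on either strand. The sequences lie at chr16:35541112-35541361 (Sema5b), chr15:32244563-32244812 (Sema5a), chr2:124089719-124089968 (Sema6d, the first of 2 starts listed) and chr9:57939862-57940111 (Sema7a).
Sema5b: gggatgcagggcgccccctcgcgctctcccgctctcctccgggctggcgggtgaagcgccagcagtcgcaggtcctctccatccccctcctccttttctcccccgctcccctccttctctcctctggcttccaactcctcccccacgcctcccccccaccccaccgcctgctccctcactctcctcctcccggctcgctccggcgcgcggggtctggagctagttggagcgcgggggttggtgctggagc
Sema5a: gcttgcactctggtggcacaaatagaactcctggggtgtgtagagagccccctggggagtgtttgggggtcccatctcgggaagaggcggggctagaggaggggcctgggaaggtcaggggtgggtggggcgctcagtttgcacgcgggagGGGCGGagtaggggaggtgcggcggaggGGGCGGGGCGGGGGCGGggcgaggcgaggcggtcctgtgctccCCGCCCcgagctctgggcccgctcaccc
Sema6d: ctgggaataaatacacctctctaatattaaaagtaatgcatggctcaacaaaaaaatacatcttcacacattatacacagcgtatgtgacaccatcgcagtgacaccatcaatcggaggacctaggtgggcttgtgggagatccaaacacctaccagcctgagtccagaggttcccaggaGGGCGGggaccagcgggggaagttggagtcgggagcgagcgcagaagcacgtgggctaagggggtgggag
Sema7a: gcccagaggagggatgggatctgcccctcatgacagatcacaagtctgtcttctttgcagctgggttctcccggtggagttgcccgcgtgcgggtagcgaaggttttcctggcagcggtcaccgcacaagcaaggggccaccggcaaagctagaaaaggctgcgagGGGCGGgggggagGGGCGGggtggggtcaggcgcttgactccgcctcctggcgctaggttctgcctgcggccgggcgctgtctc
Searches on both strands used the TATA box TATAAA, the CCAAT box by its own letters, the GC box GGGCGG, the RUNX motif TGTGGT and the cAMP response element TGACGTCA. The Sema5b window held none of the 5 motifs. Most of that window lies inside the gene as annotated in GENCODE M21, which starts at 35541145, and the bases further upstream were not searched. The Sema5a window held 5 matches to GGGCGG, some of which overlap each other, the Sema7a window held 2 and the Sema6d window 1, with no other motif. The window before the other Sema6d start (chr2:124653331-124653580, not printed) held a RUNX match on the minus strand as its only motif. RefSeq gave promoters for 26 members, with 37 starts. GGGCGG was found before 27 of these 37 starts, against 32.7% of all 32851 starts in the table, and TATAAA before none of them, against 12.4% of all starts. CCAAT lay before 7 of the 37 (33.8% of all starts), the RUNX motif before 5 (14.0%) and the cAMP response element before none (1.55%). These matches describe letters in a window of fixed length and say nothing of binding.

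Library depth ran from 9021125 to 12153109 counts in the Sst libraries and from 7419027 to 9568508 counts in the Trpv1 libraries. No difference in depth, number of genes with counts or share of mitochondrial protein-coding counts passed the test (two-sided exact permutation tests of 4 against 4 libraries, with p between 0.0857 and 0.914, or 0.257 and 0.914 after adjustment over the 3 measures, where 0.0286 is the smallest p possible). All 4 Sst libraries and Trpv1 replicates 3 and 4 held Xist counts and no Y-linked counts, whereas Trpv1 replicates 1 and 2 held Y-linked counts and no Xist. Pituitary hormone transcripts (Gh and Prl) were abundant in Sst replicate 2 and Trpv1 replicates 1, 2 and 3. The other 4 libraries, which held at most 1 count of each, are called the libraries without Gh and Prl. All 10 sensory neuron markers listed were counted in both groups, with sums of 6769 to 7365 CPM in the Sst libraries, against 4992 to 5473 CPM in the Trpv1 libraries, Snap25 called higher (edgeR adjusted p = 0.000409) and Scn9a called lower (edgeR adjusted p = 0.0471). Snap25 weighs heavily in these sums, at 3648 to 4466 CPM in the Sst libraries, against 1709 to 2290 CPM in the Trpv1 libraries. The median log2 fold change (Sst over Trpv1) of the 10 markers was −0.03. Sst itself stood at 183, 77.7, 196 and 335 CPM in Sst replicates 1 to 4, against 84.8, 58.4, 70.2 and 163 CPM in Trpv1 replicates 1 to 4 (edgeR adjusted p = 0.153). Trpv1 stood at 73.3, 77.9, 49.7 and 203 CPM in the Sst libraries, against 130.4, 184, 160.0 and 308 CPM in the Trpv1 libraries (edgeR adjusted p = 0.204). Both genes overlapped between groups. CPM are read counts per library total over the tested genes, scaled by the TMM method and expressed per mega-count of that total. Replicates are listed in their order 1 to 4 throughout.

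Markers of other cells and neuron classes were read in the same libraries, and several of these markers differed between the genotypes. Of 8 markers of myelinated neurons (such as Nefh, Ntrk3 and Runx3), 7 were called higher in the Sst libraries. The summed level of the 8 was 4182 to 7449 CPM in the Sst libraries, against 2045 to 3101 CPM in the Trpv1 libraries. Nefm weighs heavily in this sum, at 3121 to 5536 CPM in the Sst libraries, against 1831 to 2691 CPM in the Trpv1 libraries. Of 5 markers of peptidergic nociceptors 4 were called lower, with sums of 43.0 to 122 CPM in the Sst libraries, against 1864 to 2585 CPM in the Trpv1 libraries. Of 8 markers of the NP3 class, the itch neurons that express Sst, 3 were called higher (Il31ra, Jak1 and Htr1f). Sums of the 8 were 4248 to 7123 CPM in the Sst libraries, against 2378 to 2545 CPM in the Trpv1 libraries. Jak1 weighs heavily in this sum, at 2426 to 3789 CPM in the Sst libraries, against 1191 to 1438 CPM in the Trpv1 libraries. Nppb, Sst, Nts, Osmr and Cysltr2 overlapped between groups and were not called, and the log2 fold change of Nts was −0.15. The sum of 12 glial markers was 782 to 1035 CPM in the Sst libraries, against 775 to 1104 CPM in the Trpv1 libraries, with 1 of 11 tested markers (S100b) called. Sums of 10 endothelial markers were 12.6 to 77.4 CPM in the Sst libraries, against 13.5 to 48.9 CPM in the Trpv1 libraries. Sums of 6 fibroblast markers were 56.4 to 437 CPM in the Sst libraries, with the highest value in replicate 4, and 75.9 to 326 CPM in the Trpv1 libraries, with the highest value in replicate 2. Sums of 8 macrophage markers were 1.85 to 4.36 CPM in the Sst libraries, against 4.06 to 15.8 CPM in the Trpv1 libraries, and C1qa had 0 counts in all libraries. The part of these cell types in the results on semaphorins and plexins was not tested.

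Across the whole set, the Sst libraries had more of the ligand gene Sema5b and less of the ligand gene Sema6d, and the most abundant members, headed by the receptor gene Plxnc1, were present in both populations. The expression filter kept 29 of the 31 members. Of these 29, 1 was called higher and 1 lower (edgeR quasi-likelihood test, adjusted p under 0.05 over all genes tested), beside 2.08% and 2.09% of all genes, and 27 did not pass. The share called, 6.90%, stands beside 4.17% of all 11828 genes tested, so the count by itself is no result about the set. Values in the 4 Sst and 4 Trpv1 libraries did not overlap for 7 of the 29 members (24.1%), against 11.1% of all genes tested (5.43% with Sst higher and 5.71% with Sst lower). Those were Sema5b and Sema7a, higher in every Sst library, and Sema6d, Sema4d, Plxna2, Plxna4 and Nrp2, lower in every Sst library. DESeq2 called these same 7 members, against 7.63% of all genes, with 2 members given no adjusted p. Fits with voom and sample weights called 5 members against 5.11% of all genes, and edgeR with its bias-adjusted deviance, an alternative added after seeing the data, called 4 against 6.35%. Unadjusted p was under 0.05 in 9 members (31.0%), against 16.3% of all genes, and 9 members differed by more than 2-fold in either direction, against 26.1%. The median log2 fold change (Sst over Trpv1) of the 29 members was −0.33, beside 0.00 over all genes tested.

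**Figure D1:**
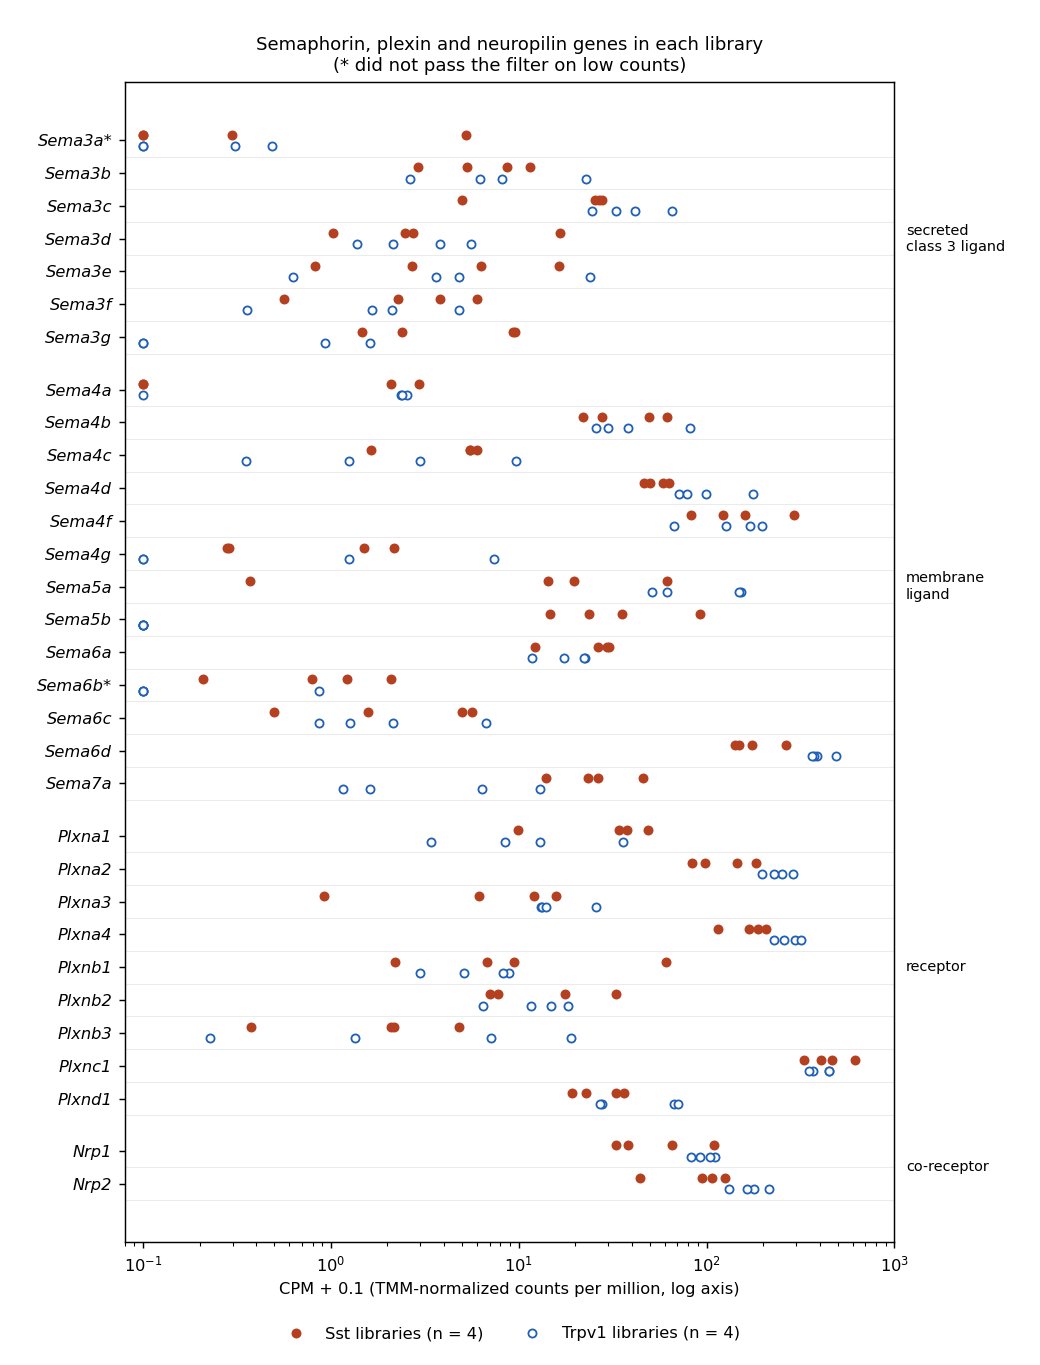
TMM-normalized CPM plus 0.1 (log axis) of all 31 genes in each library, by role, with filled points for the 4 Sst libraries and open points for the 4 Trpv1 libraries. Plxnc1, with 331 to 613 CPM in the Sst libraries and 349.5 to 451 CPM in the Trpv1 libraries, lies at the right, as does Sema6d in the Trpv1 libraries (366 to 488 CPM), and Sema5b sits at the left edge (0 counts) in all 4 Trpv1 libraries.

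Among the membrane ligands, Sema5b was counted in every Sst library and in no Trpv1 library. Sema5B is a membrane semaphorin with thrombospondin repeats, known to repel neurites and, in the mouse retina, to act through plexin-A1 and plexin-A3. Sema5b (ENSMUSG00000052133.16, GRCm38 chromosome 16, 35541145 to 35664732, plus strand) had 35.5, 14.6, 91.7 and 23.5 CPM in Sst replicates 1 to 4 (356, 134, 989 and 259 counts), against 0 counts in each Trpv1 library. The groups lay wholly apart, with Sst replicate 3 well above the other Sst libraries. Against a floor of 3 counts over the Trpv1 group, Sema5b was at least 479-fold higher in the Sst libraries (edgeR adjusted p = 5.53e-05), and without Sst replicate 3, the highest library, at least 284-fold higher. This bound covers counting error only, since amplified reads are not independent molecules. The call held under all 19 alternatives, with adjusted p of at most 0.0217.

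Sema5a, the closest relative of Sema5b, had its higher mean in the other group but did not pass. Sema5A guides axons as an attractant or a repellent and is a ligand of plexin-B3. It stood at 19.5, 14.3, 61.4 and 0.272 CPM in the Sst libraries, against 61.8, 152, 149 and 50.9 CPM in the Trpv1 libraries. The groups overlapped through Sst replicate 3, which lay between Trpv1 replicates 4 and 1, and Sst replicate 4 held only 3 counts. The log2 fold change was −2.11 (SE 0.942, edgeR adjusted p = 0.296). Sema5a passed in 1 of 19 alternatives, voom with sample weights (−2.66, adjusted p = 0.0372).

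Sema6d, a ligand of plexin-A receptors, was the one member called lower in the Sst libraries. It stood at 141, 175, 148 and 264 CPM in the Sst libraries, against 389, 374, 488 and 366 CPM in the Trpv1 libraries. Every Sst value lay below every Trpv1 value, with Sst replicate 4 nearest. Means were 182 ± 56.5 CPM in the Sst libraries, against 404 ± 56.6 CPM in the Trpv1 libraries (mean ± SD of 4), and the fitted log2 difference was −1.15 (SE 0.223, edgeR adjusted p = 0.00572). Sema6d (ENSMUSG00000027200.17) spans GRCm38 chromosome 2, 124089969 to 124667770, plus strand. The call ended in the 6 libraries that hold Xist and no Y-linked counts (−1.21, edgeR adjusted p = 0.0582) and in the 4 libraries without Gh and Prl (−0.95, edgeR adjusted p = 0.437, with 1 Trpv1 library assumed to vary like the Sst libraries).

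Sema7a did not pass the main test, yet no Trpv1 library reached any Sst library. Sema7A is anchored to the membrane by a lipid and binds plexin-C1 and beta-1 integrins. It stood at 26.2, 23.3, 46.1 and 13.9 CPM in the Sst libraries, against 12.8, 6.27, 1.52 and 1.06 CPM in the Trpv1 libraries. The gap between the lowest Sst value and the highest Trpv1 value was small, and Trpv1 replicates 1 and 2, which hold Y-linked counts, were above Trpv1 replicates 3 and 4. The part of sex in this order was not tested. Means were 27.4 ± 13.5 CPM in the Sst libraries, against 5.42 ± 5.47 CPM in the Trpv1 libraries, and the fitted log2 difference was 2.33 (SE 0.732, edgeR adjusted p = 0.0964). Sema7a passed in 7 of 19 alternatives: with a term for Xist (4.40, adjusted p = 0.0124), in the 6 libraries with Xist (4.42, adjusted p = 0.0138), without Trpv1 replicate 1 (3.23, adjusted p = 0.0351), without a filter (2.36, adjusted p = 0.0188), in DESeq2 (2.31, adjusted p = 0.0179), in voom with sample weights (2.77, adjusted p = 0.0466) and with bias-adjusted deviance in edgeR (2.30, adjusted p = 0.0285). Its adjusted p lay between 0.0124 and 0.299 across the 19 alternatives.

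**Figure D2:**
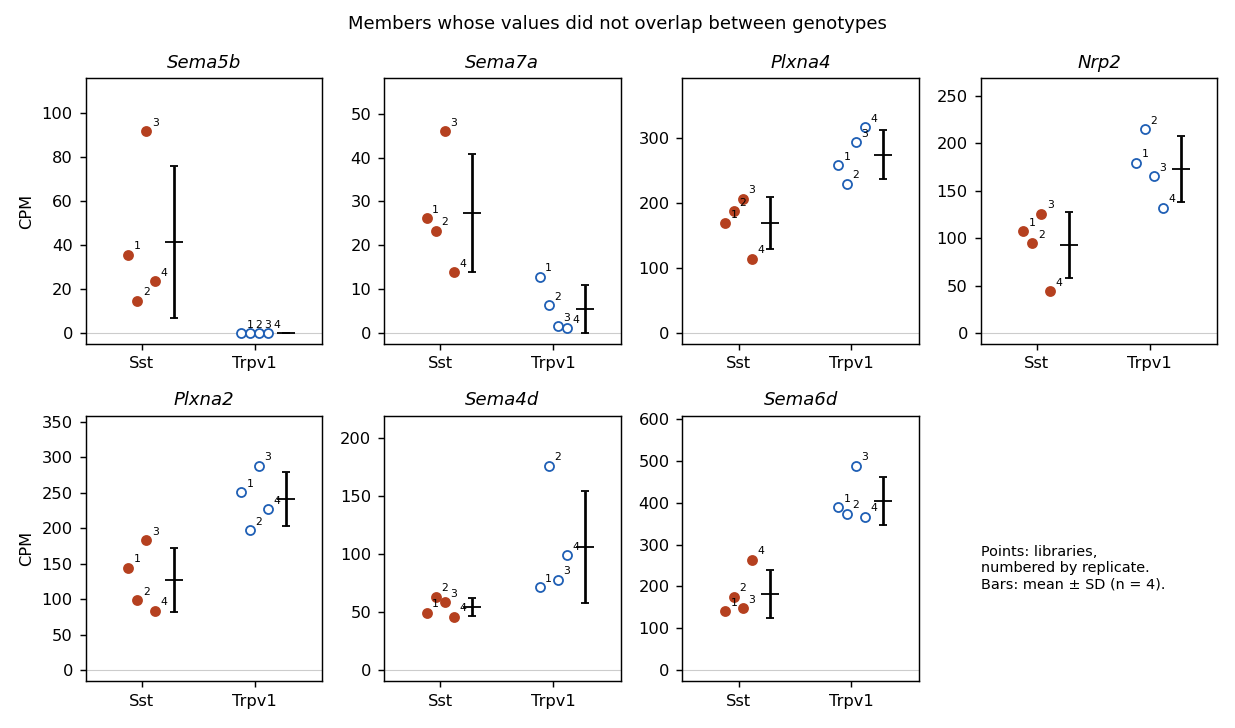
CPM of the 7 members whose values did not overlap, one panel per gene, with the Sst libraries on the left and the Trpv1 libraries on the right; points are libraries numbered by replicate and bars are the mean ± SD (n = 4). Sema5b and Sema7a lie higher in all 4 Sst libraries, and Plxna4, Nrp2, Plxna2, Sema4d and Sema6d lie lower.

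Class 4 semaphorins, membrane ligands mostly of plexin-B receptors, gave no call in edgeR or in voom among 6 tested genes. In edgeR 1 had an unadjusted p under 0.05 (16.3% of all genes), and DESeq2 called the same 1 (7.63% of all genes). That gene was Sema4d, a ligand of plexin-B1 also known as CD100, at 49.7, 63.3, 58.5 and 46.1 CPM in the Sst libraries, against 71.4, 176, 78.2 and 99.1 CPM in the Trpv1 libraries. Sst values lay within a narrow range just below the lowest Trpv1 value. The log2 fold change was −0.97 (SE 0.309, edgeR adjusted p = 0.105, and 0.0383 in DESeq2). Sema4f, the most abundant of the class per length, stood at 82.6, 294, 160.0 and 122 CPM in the Sst libraries, against 169, 196, 67.4 and 127 CPM in the Trpv1 libraries, and the groups overlapped (0.23, SE 0.364, edgeR adjusted p = 0.835). Sema4b stood at 40.1 ± 18.5 CPM in the Sst libraries, against 43.7 ± 25.7 CPM in the Trpv1 libraries (edgeR adjusted p = 0.935). Sema4a, Sema4c and Sema4g were low, with means of 0.958 to 4.55 CPM in the Sst libraries, against 1.75 to 3.47 CPM in the Trpv1 libraries.

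Of the other class 6 genes, Sema6a and Sema6c differed by less than their spread. Sema6a, a ligand of plexin-A2 and plexin-A4, stood at 24.5 ± 8.46 CPM in the Sst libraries, against 18.5 ± 5.09 CPM in the Trpv1 libraries (fitted log2 difference 0.41, SE 0.462, edgeR adjusted p = 0.755). Sema6c stood at 3.08 ± 2.53 CPM in the Sst libraries, against 2.65 ± 2.70 CPM in the Trpv1 libraries. Sema6b did not pass the filter and was not tested: it held 7, 1, 12 and 22 counts in the Sst libraries, against 0, 0, 6 and 0 counts in the Trpv1 libraries.

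Apart from Sema3c, secreted class 3 ligands were scarce in both populations, with group means of at most 9.84 CPM. None of the 6 tested genes was called in edgeR, DESeq2 or voom, with 1 (Sema3g) at an unadjusted p under 0.05 in edgeR (16.3% of all genes). Sema3c, which can bind both neuropilins, was the most abundant per length, at 25.5, 4.91, 27.8 and 26.7 CPM in the Sst libraries, against 24.4, 65.2, 41.4 and 32.8 CPM in the Trpv1 libraries (−0.95, SE 0.508, edgeR adjusted p = 0.397). Sema3g, a ligand of neuropilin 2, stood at 2.29, 9.48, 9.27 and 1.36 CPM in the Sst libraries, against 0.828, 0, 1.52 and 0 CPM in the Trpv1 libraries. Its groups overlapped at the low end, and the log2 fold change was 3.23 (SE 1.42, edgeR adjusted p = 0.264, with 20 counts in all in the Trpv1 group). Sema3b, Sema3d, Sema3e and Sema3f had group means from 2.13 to 9.84 CPM and edgeR adjusted p from 0.785 to 0.930. Sema3a did not pass the filter. Of its 64 counts, 57 lay in Sst replicate 4, the library with the highest sum of fibroblast markers (437 CPM, against 56.4 to 75.3 CPM in the other Sst libraries). None of the 6 tested class 3 genes had its highest Sst value in that library. Sema3b, Sema3c, Sema3d and Sema3e had their highest Trpv1 value in replicate 2, the Trpv1 library with the highest such sum (326 CPM), and Sema3f and Sema3g had their lowest there, Sema3g at 0 as in replicate 4. The part of fibroblasts in these values was not tested.

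**Figure D3:**
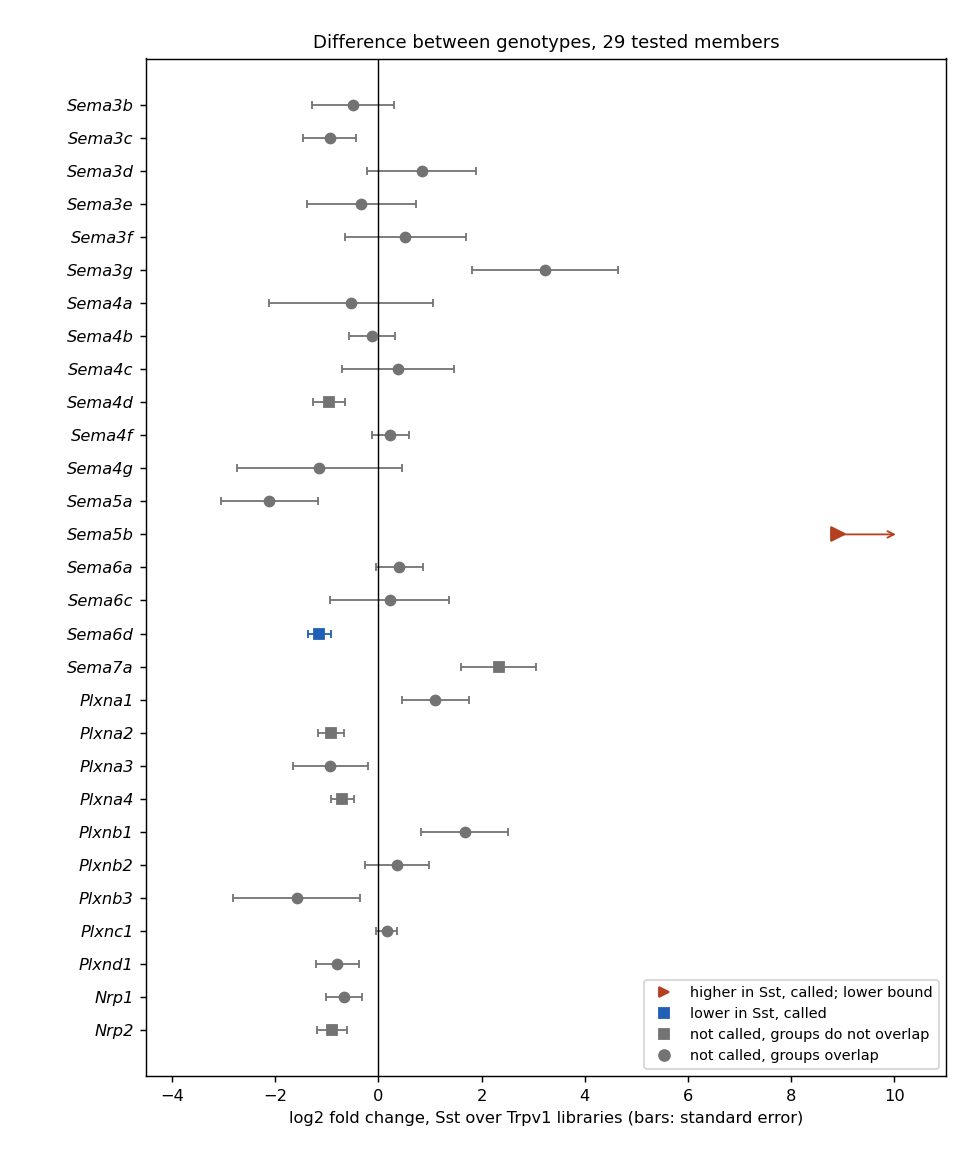
Fitted log2 fold change, Sst over Trpv1, of the 29 tested members with standard errors; squares mark genes whose groups did not overlap, and the arrow marks the lower bound for Sema5b (8.90, a floor of 3 counts over the Trpv1 group). Sema6d (−1.15) is the called gene on the lower side, and standard errors are widest for low genes such as Sema4g and Sema4a.

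Among the receptors, Plxnc1 was the most abundant plexin gene per length in every library and did not differ beyond its spread. None of the 9 plexins was called in edgeR (4.17% of all genes), with 2 at an unadjusted p under 0.05 (16.3% of all genes). DESeq2 called 2 (7.63% of all genes) and voom 1 (5.11% of all genes). With 9 genes, these counts are no result about plexins. Plexin-C1 is the receptor of Sema7A and is known as a marker of non-peptidergic nociceptors. It stood at 405, 331, 468 and 613 CPM in the Sst libraries, against 371, 349.5, 447 and 451 CPM in the Trpv1 libraries. The groups overlapped, with Sst replicate 4 above all others and Sst replicate 2 below all others. The log2 fold change was 0.17 (SE 0.203, edgeR adjusted p = 0.779), which does not show that the levels are equal. Without Sst replicate 4 it was −0.01.

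Plxna2 and Plxna4, receptors of class 6 semaphorins and, with neuropilins, of class 3 semaphorins, were lower in each Sst library without passing the main test. Plxna2 stood at 145, 98.5, 183 and 84.0 CPM in the Sst libraries, against 251, 198, 288 and 227 CPM in the Trpv1 libraries (−0.92, SE 0.253, edgeR adjusted p = 0.0524). Plxna4 stood at 169, 187, 207 and 114 CPM in the Sst libraries, against 258, 229.7, 294 and 316 CPM in the Trpv1 libraries (−0.70, SE 0.219, edgeR adjusted p = 0.0957). For both genes the highest Sst library was replicate 3 and the lowest replicate 4. Plxna2 passed in 8 of 19 alternatives, among them RLE scaling (adjusted p = 0.0467), DESeq2 (0.0124), voom (0.0297), bias-adjusted deviance in edgeR (0.0300) and the removal of Sst replicate 3 (0.0270), with values between 0.0124 and 0.604 across the 19. Plxna4 passed in DESeq2 alone (adjusted p = 0.0383).

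The remaining plexins did not pass in any alternative. Plxna1 stood at 48.5, 9.81, 34.1 and 37.6 CPM in the Sst libraries, against 35.7, 3.33, 8.38 and 12.9 CPM in the Trpv1 libraries (1.10, SE 0.643, edgeR adjusted p = 0.447); an antisense gene, Gm26811, overlaps 10.7% of its exon length, and whether counting used strand is not stated. Plxnd1, the receptor of Sema3E, stood at 27.7 ± 8.03 CPM in the Sst libraries, against 48.1 ± 24.1 CPM in the Trpv1 libraries (−0.80, SE 0.420, edgeR adjusted p = 0.383). Plxna3, on the X chromosome and known as a receptor with neuropilin 2, stood at 8.64 ± 6.55 CPM in the Sst libraries, against 16.5 ± 6.15 CPM in the Trpv1 libraries. Plxnb1 stood at 60.9 CPM in Sst replicate 4 and at 2.09 to 9.37 CPM in the other Sst libraries, against 2.87 to 8.80 CPM in the Trpv1 libraries, and its fitted value was 1.67 with all libraries and −0.04 without Sst replicate 4. Plxnb2 and the X-linked gene Plxnb3 had means of 16.3 and 2.26 CPM in the Sst libraries, against 12.7 and 6.83 CPM in the Trpv1 libraries.

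Both neuropilins had lower means in the Sst libraries, and neither was called in edgeR or voom. In edgeR 1 of the 2 had an unadjusted p under 0.05 (16.3% of all genes). Nrp2, the binding subunit for Sema3F and also a receptor of vascular endothelial growth factors, stood at 107, 94.4, 126 and 44.0 CPM in the Sst libraries, against 179.5, 215, 165 and 132 CPM in the Trpv1 libraries. All Sst values lay below all Trpv1 values, with a fitted log2 difference of −0.90 (SE 0.293, edgeR adjusted p = 0.114, and 0.0454 in DESeq2). Nrp1, the binding subunit for Sema3A, stood at 65.3, 110.1, 32.7 and 38.2 CPM in the Sst libraries, against 92.4, 82.5, 111 and 104 CPM in the Trpv1 libraries. Sst replicate 2 lay within the Trpv1 range and the other Sst libraries lay below it (−0.66, SE 0.347, edgeR adjusted p = 0.379). Endothelial cells also express Nrp1, and the part of these cells in the Nrp1 values was not tested. Summed endothelial markers overlapped between groups, as given above.

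Levels of the members were ranked per kilobase of exon (CPM divided by the joined exon length in GENCODE M21). Plxnc1 stood first in both groups at 54.4 ± 14.4 CPM per kb in the Sst libraries and 48.5 ± 6.24 CPM per kb in the Trpv1 libraries (mean ± SD of 4). In the Sst libraries Sema4f (31.1 ± 17.3), Sema6d (17.3 ± 5.35), Plxna4 (12.0 ± 2.82) and Sema7a (8.30 ± 4.10 CPM per kb) followed. In the Trpv1 libraries the order after Plxnc1 was Sema6d (38.3 ± 5.36), Sema4f (26.4 ± 10.6), Plxna4 (19.5 ± 2.71) and Nrp2 (14.6 ± 2.91 CPM per kb), with Sema7a at 1.64 ± 1.66 CPM per kb in rank 17. For each pair of neighbours among these 5 genes, in both groups, the ranges of mean ± SD met. Library by library, Plxnc1 stood above Sema6d in 4 of 4 Trpv1 libraries and Plxna4 above Sema7a in 4 of 4 Sst libraries, and each other pair of neighbours kept its order in 3 of 4. Plxnc1 made up 56.7% to 71.2% of the summed plexin level per kb in the Sst libraries and 48.3% to 54.0% in the Trpv1 libraries. A share also moves with the levels of the other plexins in the sum. Summed neuropilin level was 7.62 to 19.2 CPM per kb in the Sst libraries and 21.8 to 26.6 CPM per kb in the Trpv1 libraries. Summed semaphorin level was 68.3 to 106 CPM per kb in the Sst libraries and 94.7 to 131 CPM per kb in the Trpv1 libraries. These sums and shares are descriptions without a test.

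**Figure D4:**
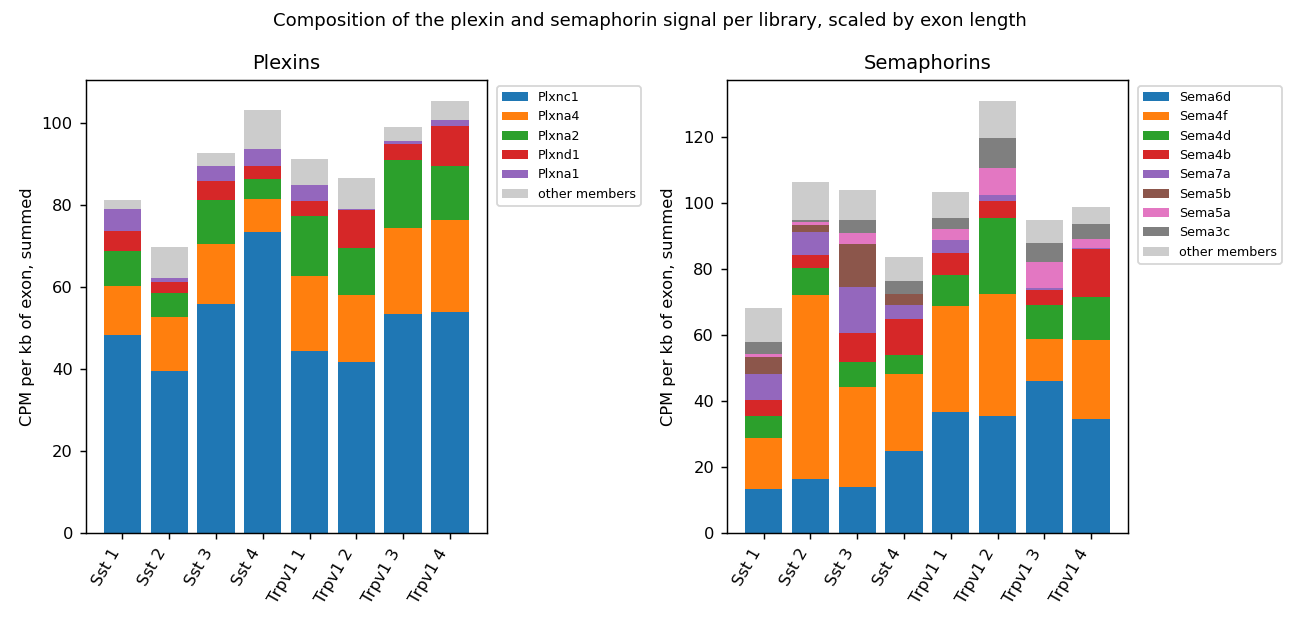
Summed level of plexins (left) and semaphorins (right) in each library, in CPM per kilobase of exon, stacked by gene, with the 4 Sst libraries left of the 4 Trpv1 libraries. Plxnc1 is the tallest plexin segment in all 8 libraries, and the Sema6d segment is taller in the Trpv1 libraries (CPM per kb 38.3 on average) than in the Sst libraries (17.3).

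Members also differed in how far their values varied between libraries. This spread takes in counting error, and a single library can set it, as Sst replicate 4 does for Plxnb1. In the Sst libraries the coefficient of variation of CPM over the 4 libraries ran from 14.6% (Sema4d) to 140% (Plxnb1), with a median of 55.7% over the 29 tested members, and the median in the Trpv1 libraries was 51.4%. The abundant members Plxnc1 and Plxna4 varied by 26.4% and 23.5% in the Sst libraries and by 12.9% and 13.9% in the Trpv1 libraries.

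Other genes of the pathway were read from 4 lists with 56 tested genes, of which 6 (10.7%) were called, 2 higher and 4 lower, against 4.17% of all genes. The lists were chosen with earlier results of these data known, so this share is no result about the pathway. Of 12 tested co-receptors and binding partners, 1 was higher, 1 was lower and 10 did not pass (16.7% called). Chl1, an L1-family adhesion molecule that associates with neuropilin 1, stood at 36.7, 37.6, 54.9 and 91.1 CPM in the Sst libraries, against 277, 283, 315 and 166 CPM in the Trpv1 libraries, with no overlap (−2.24, SE 0.310, edgeR adjusted p = 0.000368). Robo1, the Slit receptor, which can also bind neuropilin 1, stood at 40.8, 62.5, 37.3 and 7.89 CPM in the Sst libraries, against 3.10, 3.84, 3.93 and 1.17 CPM in the Trpv1 libraries (3.62, SE 0.652, edgeR adjusted p = 0.00331). Replicate 4 was the lowest library of its group for Robo1 in both genotypes, and the groups did not overlap. Cntn2, an axonal adhesion molecule, and Mst1r, a receptor tyrosine kinase, were not called in the main test but were called in DESeq2, in voom and with bias-adjusted deviance, and are named after their values were seen. Cntn2 averaged 187 ± 32.6 CPM in the Sst libraries, against 89.5 ± 44.6 CPM in the Trpv1 libraries (1.06, edgeR adjusted p = 0.108). Mst1r held 0, 1, 3 and 0 counts in the Sst libraries, against 33, 21, 46 and 31 counts in the Trpv1 libraries (edgeR adjusted p = 0.0617).

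Of 35 tested intracellular effectors, 1 was higher, 2 were lower and 32 did not pass (8.57% called, beside 4.17% of all genes). Kalrn, a guanine nucleotide exchange factor for Rac, stood at 23.2, 5.78, 15.6 and 13.7 CPM in the Sst libraries, against 87.8, 73.8, 74.5 and 110.1 CPM in the Trpv1 libraries (−2.57, SE 0.404, edgeR adjusted p = 0.00113). Rap1b, a GTPase of the kind that plexins inactivate, averaged 32.5 ± 5.44 CPM in the Sst libraries, against 81.3 ± 20.3 CPM in the Trpv1 libraries (−1.32, edgeR adjusted p = 0.0211). Tiam1, an activator of Rac, averaged 45.2 ± 10.0 CPM in the Sst libraries, against 16.2 ± 4.39 CPM in the Trpv1 libraries (1.48, edgeR adjusted p = 0.0416). The collapsin response mediator genes Dpysl2 and Dpysl3 did not pass, and Dpysl2 averaged 469.8 ± 85.6 CPM in the Sst libraries, against 619 ± 51.8 CPM in the Trpv1 libraries (edgeR adjusted p = 0.269). Of 7 tested proteases 1 (14.3%) was lower: Adam10, a sheddase of membrane proteins, averaged 27.9 ± 10.1 CPM in the Sst libraries, against 69.3 ± 8.40 CPM in the Trpv1 libraries (−1.31, edgeR adjusted p = 0.0366). Neither of the 2 tested growth factor ligands of neuropilins, Vegfa and Vegfb, was called in edgeR, DESeq2 or voom. In edgeR 1 had an unadjusted p under 0.05 (16.3% of all genes).

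The calls of Chl1, Robo1 and Kalrn were lost in 1 of 19 alternatives each, the 4 libraries without Gh and Prl, which include 1 Trpv1 library. The fitted log2 difference there was −1.41 for Chl1 (edgeR adjusted p = 0.333), 4.64 for Robo1 (0.187) and −2.61 for Kalrn (0.0720). The call of Rap1b was lost without any single library except Sst replicate 4 or Trpv1 replicate 4, that of Adam10 without any except Sst replicate 4, and that of Tiam1 without any except Trpv1 replicate 2 (edgeR adjusted p up to 0.122). Tiam1 also missed the threshold in voom (adjusted p = 0.0527). All 3 were lost with a term for Xist, with the replicate number as a block and in the 6 libraries with Xist. Their calls also ended in the 4 libraries without Gh and Prl, with fitted log2 differences of −0.53 (Rap1b), 1.47 (Tiam1) and −1.38 (Adam10).

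**Figure D5:**
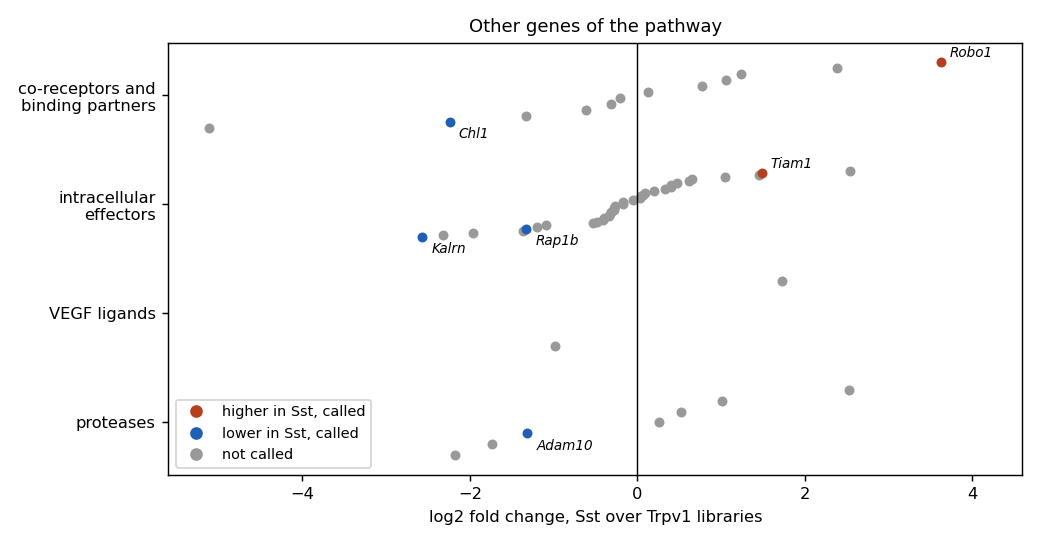
Fitted log2 fold change, Sst over Trpv1, of the 56 tested genes in the 4 pathway lists; each point is a gene and colour marks the 6 called genes. Robo1 (3.62) and Tiam1 (1.48) lie on the higher side and Kalrn (−2.57), Chl1 (−2.24), Rap1b (−1.32) and Adam10 (−1.31) on the lower side.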

How the data were processed

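The deposited file is 1 table of unnormalized read counts, with gene symbols in rows and the 8 samples in columns. RNA of each pool was extracted with a PicoPure kit, amplified with Ovation RNA-seq V2 and made into Nextera XT libraries, per the labels' protocols. Reads passed through bcl2fastq 2.17, Trimmomatic 0.33 and featureCounts on GRCm38, per the submitters' processing notes; for the aligner, annotation and strand setting nothing is given in the sources used here. Nothing says how many mice gave each sample beyond the statement that samples were independent, and libraries of a group differed far beyond counting error (chi-square per degree of freedom 43.4 to 108.3 over 12 pairs).

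Counts were scaled by TMM, filtered with filterByExpr of edgeR (minimum count 10) and tested with glmQLFit and glmQLFTest (edgeR 4.0.16, R 4.3.3, robust estimates, default deviance), group as the sole term, two-sided, Benjamini-Hochberg adjustment over all 11828 genes and a threshold of 0.05. The code was tested on simulated data. In 5 simulations the main fit called 5.2% of planted 2-fold and 40% of planted 4-fold changes, and 3.83% of its calls were false. With bias-adjusted deviance 8.21% of calls were false. Most of the planted 2-fold changes were therefore missed. Planted genes were drawn at random from all tested genes, so these shares do not give the power for abundant genes alone. The main fit did call Sema6d at a log2 fold change of −1.15. The SE of a log2 fold change is its size divided by the square root of F. DESeq2 1.42.0 and limma 3.58.1 voom were alternatives, beside other scalings and filters, a replicate block, a term for Xist, subsets of libraries and each library left out. Exon lengths, positions and overlaps came from GENCODE M21 (GRCm38), which matched all 31 members. The rule for members names a trailing os; the antisense genes numbered after os were left out with it. Members and lists were chosen with earlier results of these data known. Values per library are given for called members, for the 6 most abundant that were not called, and for members described as standing apart in a library or between groups, the last chosen after their values were seen. From each pathway list every called gene was named. Of 71 listed genes, 70 were in the table under that symbol (Vegfd was not).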

Additional observations from a re-analysis of the deposited data

Results flagged for a closer look

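Of 57 groups of 4 libraries examined over the tested members, 7 held 1 library far from the other 3 (Dixon's test at the 95% level). For normally distributed values, chance passes this test in about 1 of 20 groups. Whether these CPM are so distributed was not tested, so the 7 groups are not read as an excess. In Sst replicate 4, Plxnb1 stood at 60.9 CPM, against 2.09 to 9.37 CPM in the other Sst libraries, and Sema4c at 1.54 CPM, against 5.38 to 5.89 CPM. In Sst replicate 2, Sema3c stood at 4.91 CPM, against 25.5 to 27.8 CPM in the other Sst libraries, and Sema3d at 16.6 CPM, against 0.927 to 2.63 CPM. In Trpv1 replicate 4, Sema4g stood at 7.32 CPM, against 0 to 1.15 CPM in the other Trpv1 libraries, and Sema4a at 0 CPM, against 2.28 to 2.43 CPM. In Trpv1 replicate 1, the X-linked gene Plxna3 stood at 25.7 CPM, against 13.0 to 13.9 CPM in the other Trpv1 libraries. No member was called in edgeR through such a library.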

How the results depend on the processing

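Over all genes, 493 were called, against 902 in DESeq2, 751 with bias-adjusted deviance (added after seeing the data), 268 with a term for Xist, 230 in the 6 libraries with Xist and 55 in the 4 libraries without Gh and Prl. Leaving out each library in turn gave 306 to 503 calls, with 306 without Sst replicate 3, 326 without Trpv1 replicate 3 and 328 without Trpv1 replicate 1. Of the members, 2 were called, against 7 in DESeq2, 5 in voom, 4 without a filter, 4 with bias-adjusted deviance, 1 in the libraries without Gh and Prl, and 2 to 3 with each library left out. Of the pathway genes, 6 were called, against 8 in DESeq2, 8 with bias-adjusted deviance, 7 in voom, 3 with a term for Xist, 3 in the libraries with Xist, 0 in edgeR in the libraries without Gh and Prl (12 of 64 at an unadjusted p under 0.05) and 3 to 5 with each library left out. With the replicate number as a block, 398 genes, 3 members and 3 pathway genes were called, with Rap1b (edgeR adjusted p = 0.0660), Tiam1 (0.0962) and Adam10 (0.0562) lost and Plxna2 (0.0384) gained; same-numbered libraries did not deviate together (correlations −0.0296 to 0.0316), and 1 of 4 Sst and 1 of 4 Trpv1 libraries correlated best with their own number. Picking sessions held one sample of each genotype, but the labels do not say that the number marks the session, and these correlations do not show that it does.

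The direction of a log2 fold change reversed only in members that were not called. In voom these were Plxnb1 (−0.24), Plxnb2 (−0.16), Sema3d (−0.026), Sema3e (0.80), Sema4f (−0.086), Sema4g (1.52) and Sema6c (−0.94), and with the block Sema3e (0.11) and Sema4g (1.16). With a term for Xist they were Sema3b (0.70), Sema3e (1.31), Sema3f (−0.13) and Sema4a (0.081), and in the libraries with Xist the same genes (0.72, 1.32, −0.11 and 0.095). Without Gh and Prl they were Plxnb2 (−0.053), Sema3b (1.15), Sema3e (3.88), Sema4a (5.82) and Sema4f (−0.020). With each library left out, values ran over −0.035 to 2.05 (Plxnb1), −0.22 to 0.63 (Plxnb2), −0.012 to 0.31 (Plxnc1), −0.82 to 0.35 (Sema3b), −0.64 to 1.28 (Sema3d), −1.35 to 1.16 (Sema3e), −0.0041 to 1.25 (Sema3f), −0.40 to 0.38 (Sema4b), −0.0061 to 1.69 (Sema4c), −0.19 to 0.46 (Sema4f), −1.80 to 1.31 (Sema4g) and −0.21 to 1.23 (Sema6c). The cause was not tested. Members near 1 CPM rest on few counts, and 4 libraries a group limit what can be called.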
